A study of Mus musculus with 3 samples.

Results

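Transcripts of the fast and slow skeletal muscle troponins were described in RNA sequencing libraries of the mouse mandibular condyle, the jaw end of the temporomandibular joint. The genes were chosen by symbol as the fast and slow isoforms of the 3 troponin subunits, which are Tnnt3 and Tnnt1 for troponin T, Tnni2 and Tnni1 for troponin I, and Tnnc2 and Tnnc1 for troponin C. These are 6 of the 26970 genes in the deposited table, and all 6 were found there. Condyles of 4-month-old mice were compared in 3 genotypes, WT (+/+), Dspp+/- and Dspp-/-. Dspp encodes dentin sialophosphoprotein, a matrix protein of dentin and bone, and the mutant allele is a global deletion on a C57BL/6 background, so every tissue of the joint carries it. Condyles were taken with cartilage and subchondral bone still joined. Per the study's methods, tissue of 3 animals was pooled for WT and for Dspp+/-, and the number of animals behind Dspp-/- is not given in the sources used here. Each genotype has 1 library with no replicate, so no test between genotypes was possible, and every difference below is a difference between single libraries.

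Troponin is the calcium switch of striated muscle. On the thin filament, which is built of actin and tropomyosin, troponin C binds calcium, troponin I holds the filament in the inhibited state, and troponin T ties the complex to tropomyosin. The subunits assemble in equal proportion, and each has a fast and a slow isoform encoded by separate genes, used mainly by fast-twitch and slow-twitch fibres. Tnnc1 also serves the heart, while the heart has its own T and I isoforms, Tnnt2 and Tnni3. Chewing muscles of the mouse are made mainly of fast fibres, and the lateral pterygoid muscle inserts at the condyle. In bulk tissue, fewer muscle fibres and less RNA per fibre cannot be told apart.

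The fast and slow genes of a subunit are similar enough that their reads could in principle be confused, so the most similar stretches of coding sequence are shown first. They come from the GENCODE M21 transcripts, run 5′ to 3′, and have the bases that differ within a pair in capitals. For troponin T, the closest 60 coding bases are bases 427 to 486 of Tnnt3 and 406 to 465 of Tnnt1, of which 49 are identical.
Tnnt3: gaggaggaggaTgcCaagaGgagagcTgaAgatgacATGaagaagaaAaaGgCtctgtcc
Tnnt1: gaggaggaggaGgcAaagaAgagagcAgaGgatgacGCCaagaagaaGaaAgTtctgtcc
For troponin I, they are bases 361 to 420 of Tnni2 and 364 to 423 of Tnni1, with 51 identical.
Tnni2: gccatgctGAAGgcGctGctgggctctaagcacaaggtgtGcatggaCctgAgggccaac
Tnni1: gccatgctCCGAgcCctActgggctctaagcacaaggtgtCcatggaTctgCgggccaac
For troponin C, they are bases 402 to 461 of Tnnc2 and 405 to 464 of Tnnc1, with 49 identical.
Tnnc2: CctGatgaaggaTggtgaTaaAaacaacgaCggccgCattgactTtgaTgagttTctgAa
Tnnc1: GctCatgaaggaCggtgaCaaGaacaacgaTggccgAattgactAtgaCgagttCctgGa
The longest identical runs shared by the coding sequences of a pair were 16 bases for T, 22 for I and 21 for C. No 100-base sequence of any member occurred in another troponin gene, in either orientation. The reads were pairs of 150 bases, longer than any of these runs.

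One member has a different partner. Tnnc2 lies on the minus strand of chromosome 2 and overlaps the last exon of Ube2c, a ubiquitin-conjugating enzyme gene of dividing cells on the plus strand. In GRCm38, 592 of the 800 exon bases of Tnnc2 (74.0%) lie inside exons of Ube2c, and 477 of its 480 coding bases (99.4%) do. In transcript sequence the sharing was smaller. Of 700 different 100-base sequences of Tnnc2 transcripts, 154 (22%) occurred in transcripts of Ube2c, in either orientation. The first 150 coding bases of Tnnc2 are printed because they show how complete the overlap is by position in the genome. The 147 bases in capitals lie within the Ube2c exon on the other strand, and the 3 bases of the start codon do not.
Tnnc2: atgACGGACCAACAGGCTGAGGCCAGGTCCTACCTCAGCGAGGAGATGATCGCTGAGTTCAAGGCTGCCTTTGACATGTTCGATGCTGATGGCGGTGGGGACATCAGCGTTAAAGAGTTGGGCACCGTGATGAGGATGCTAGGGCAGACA

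**Figure D1:**
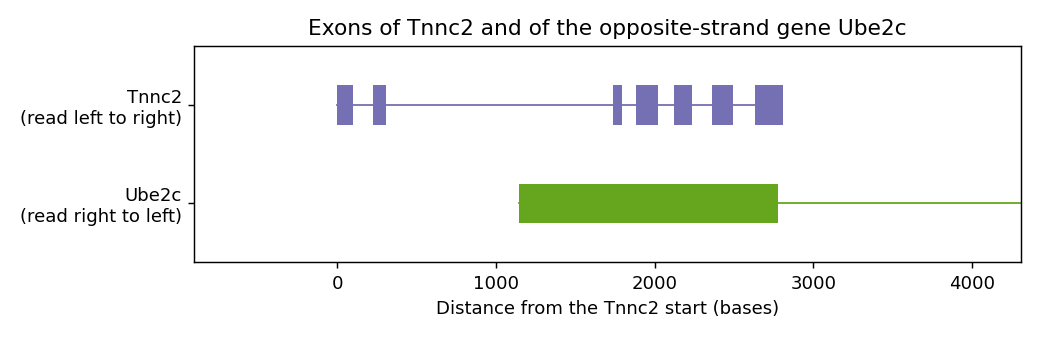
Exons of Tnnc2 and of the 3′ part of Ube2c in GRCm38, drawn to scale as distance in bases from the Tnnc2 start, with boxes for exons and lines for introns. The last Ube2c exon, 1633 bases long, covers 592 of the 800 exon bases of Tnnc2.

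The WT library held 20241576 fragments, that of Dspp+/- 23613623 and that of Dspp-/- 22253155, recovered from the deposited values. FPKM counts fragments relative to exon length and library depth, so levels of different genes can be compared per length, and 1 fragment in a 1 kb gene was worth 0.0423 to 0.0494 FPKM. The tissue label held for bone and cartilage, since all 7 osteoblast markers and 6 of 7 chondrocyte markers averaged 1 FPKM or more, but skeletal muscle genes were abundant too. The 12 skeletal muscle markers summed to 10415 FPKM for WT, 14506 for Dspp+/- and 11663 for Dspp-/-. Acta1 alone gave 5609, 8162 and 7150 FPKM of these sums and weighs heavily on their order. By log2 ratio, 11 of the 12 markers were above 0 and 1 below in Dspp+/- against WT. In Dspp-/- against WT, 7 were above 0 and 5 below. Other markers moved with genotype, and their part in the troponin values was not tested. Osteoblast markers summed to 10638, 2865 and 5653 FPKM in the same order, chondrocyte markers to 1580, 450 and 698, osteoclast markers to 2192, 773 and 1264, erythroid markers to 830, 3504 and 3342, and neutrophil markers to 443, 1993 and 2709. Mitochondrially encoded genes held 25.0%, 36.9% and 37.3% of the summed FPKM, and Xist, the X-inactivation RNA of female cells, had 2, 12084 and 10563 fragments, so the sex of the pooled animals and genotype cannot be told apart. The 5 cardiac muscle markers in the table summed to 0.749, 1.73 and 1.45 FPKM.

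Troponin T was the most abundant troponin transcript in every library. Tnnt3, the fast isoform, is at position 142052573 to 142069746 of chromosome 7, plus strand, in the deposited table. It reached 1450 FPKM in the WT library, 1950 in Dspp+/- and 1218 in that of Dspp-/-, from 46469, 72896 and 42911 fragments. It ranked 17, 11 and 20 from the top among all genes of each library. Against WT its level was 1.34-fold in Dspp+/- (95% interval 1.33 to 1.36) and 0.840-fold in Dspp-/- (0.829 to 0.851). Intervals of folds are Clopper-Pearson intervals on the fragments and cover counting error only, so they leave out the spread between animals. On that scale all 3 levels of Tnnt3 were apart, with Dspp+/- highest and Dspp-/- lowest.

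Tnnt1, the slow troponin T on the minus strand of chromosome 7 from 4507569 to 4519381, was rare beside it. Its level was 2.85 FPKM for WT, 5.55 for Dspp+/- and 1.98 for Dspp-/-, from 127, 289 and 97 fragments. The order of the libraries was that of Tnnt3, with wider steps to and from Dspp+/-. The step of Dspp-/- against WT was wider too, but its interval includes the 0.840-fold of Tnnt3. Its level was 1.95-fold in Dspp+/- against WT (1.58 to 2.42), 0.695-fold in Dspp-/- against WT (0.528 to 0.912) and 0.356-fold in Dspp-/- against Dspp+/- (0.280 to 0.450).

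Troponin I showed the same dominance of the fast isoform. Tnni2, the fast isoform at 141995545 to 141998147 of chromosome 7, plus strand, stood at 834 FPKM for WT, 1052 for Dspp+/- and 642 for Dspp-/-, from 25266, 37191 and 21397 fragments. Its ranks from the top were 29, 21 and 36. Its level was 1.26-fold in Dspp+/- (1.24 to 1.28) and 0.770-fold in Dspp-/- (0.756 to 0.785) against WT. Tnni2 and Tnnt3 lie 54.4 kb apart in the table, with Lsp1 between them, and had the same order of libraries. Tnnt1, elsewhere on chromosome 7, had that order as well.

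Tnni1, the slow troponin I on the plus strand of chromosome 1 from 135707172 to 135738727, ordered the libraries differently. Its level was 0.384 FPKM for WT, 1.33 for Dspp+/- and 0.774 for Dspp-/-, from 28, 113 and 62 fragments. Here WT was the lowest library and both mutant libraries were above it. Its level was 3.46-fold in Dspp+/- (2.27 to 5.44) and 2.01-fold in Dspp-/- (1.27 to 3.27) against WT, and 0.582-fold in Dspp-/- against Dspp+/- (0.420 to 0.801). With a mean of 0.829 FPKM, Tnni1 did not reach the mean of 1 FPKM required for the count of 2-fold differences below.

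Troponin C was nearly undetected, in contrast to its partners. Tnnc2, the fast isoform at 164619081 to 164621887 of chromosome 2, minus strand, had 0 fragments for WT, 1 for Dspp+/- and 0 for Dspp-/-. A count of 0 allows up to 3 fragments, which is 0.185 FPKM in WT and 0.169 in Dspp-/-, while the upper ends of the exact Poisson 95% intervals were 0.228 and 0.207 FPKM. Against the limit of 3 fragments in each library, Tnni2 was at least 4501-fold higher than Tnnc2 in WT and at least 3812-fold higher in Dspp-/-. In Dspp+/-, with 1 fragment of Tnnc2, the ratio was 19875, with a counting interval from 3567 to 785040. The other troponin C gene was low as well. Tnnc1, the slow and cardiac isoform on the plus strand of chromosome 14 from 30930269 to 30933686, was at 0.285 FPKM for WT, 0.366 for Dspp+/- and 0.259 for Dspp-/-, from 6, 9 and 6 fragments. The intervals of its folds against WT, 0.409 to 4.39 in Dspp+/- and 0.243 to 3.40 in Dspp-/-, include 1. Tnnc1 lies inside the span of Nisch, a gene of the other strand, and shares 0 exon bases with it.

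**Figure D2:**
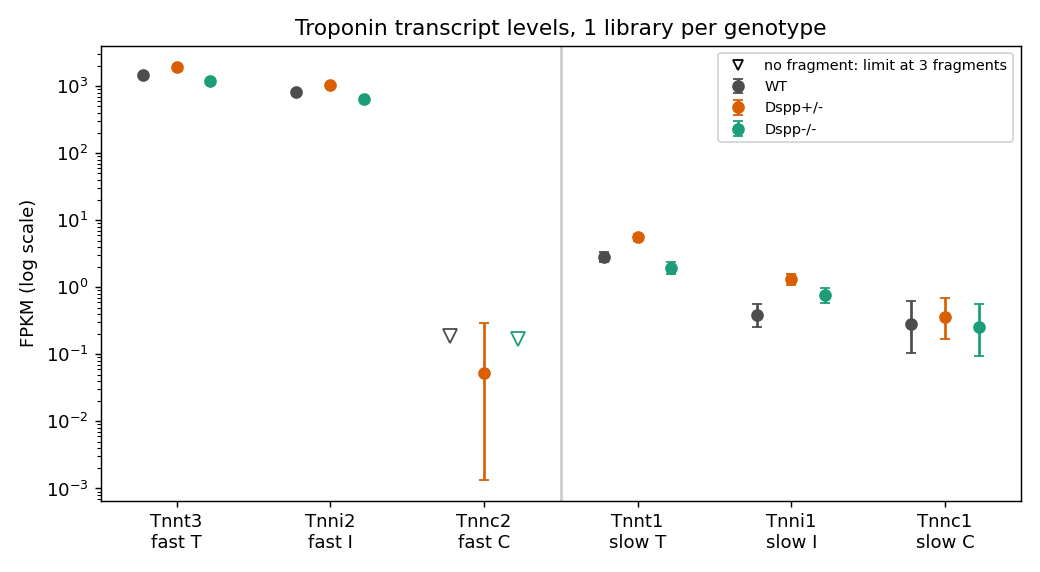
Level of each troponin gene in FPKM on a log axis, by gene and genotype, 1 library each, with exact Poisson 95% intervals for counting error. Fast T and I lie between 642 and 1950 FPKM, slow T and I between 0.384 and 5.55, and open triangles mark the limit of 3 fragments where Tnnc2 had 0.

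Low values of Tnnc2 were set beside those of other genes that overlap. Among protein-coding genes with no exon base inside another gene's exons, 8.42% of 11275 had 3 fragments or fewer in all libraries. The share was 4.44% of 5491 genes with up to 50% of their exon bases shared, 16.2% of 291 genes with over 50% to 90%, and 55.7% of 61 genes with over 90%. By exon bases Tnnc2 belongs to the class of over 50% to 90%. No gene was classed by coding bases, so the 99.4% of its coding bases that overlap cannot be placed among these classes. The median over genes of the highest count in any library was 357, 467, 27 and 3 fragments in the same order. Whether reads of Tnnc2 were left out because of Ube2c was not tested. Ube2c itself had 1.96, 12.3 and 9.78 FPKM, from 103, 756 and 566 fragments, far below Tnni2. The Tnnc2 values are given as listed and are not read as the level of fast troponin C in this tissue.

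**Figure D3:**
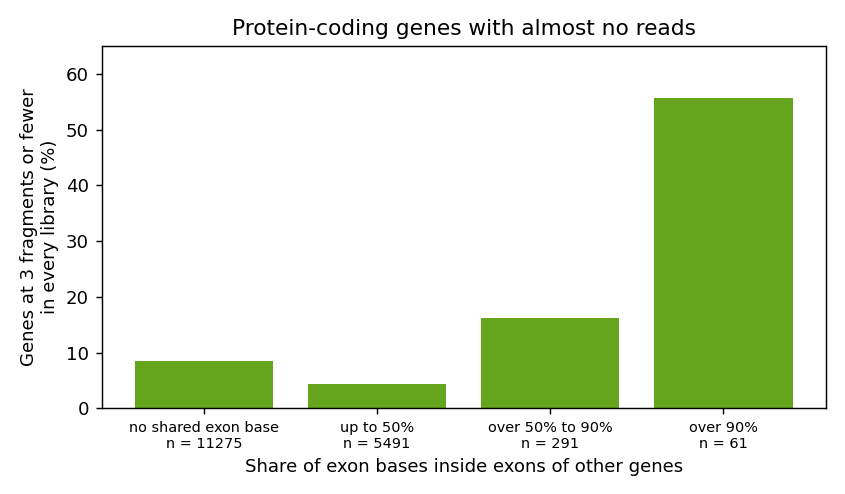
Bars give the percent of protein-coding genes with 3 fragments or fewer in all 3 libraries, by the share of their exon bases inside exons of other genes in GENCODE M21. The share is 8.42% without overlap, 4.44% with up to 50% of exon bases shared and 55.7% where over 90% are shared. It is 16.2% for over 50% to 90%, the class of Tnnc2.

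The cardiac isoforms were at the edge of detection. Tnnt2 had 8, 1 and 8 fragments in WT, Dspp+/- and Dspp-/-, and Tnni3 had 12, 5 and 14, and the highest of these levels was 0.305 FPKM. Within a library the order of the members was Tnnt3, Tnni2, Tnnt1, Tnni1, Tnnc1 and Tnnc2 in all 3 genotypes. In WT the intervals of Tnni1 (0.255 to 0.555 FPKM) and Tnnc1 (0.104 to 0.620) overlapped, and those of Tnnc1 and Tnnc2 overlapped in all 3 libraries, so these neighbours were not separated by counting error.

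The question put to each library was how far the fast isoform exceeded its slow partner. For troponin T the fast isoform was 509-fold the slow one for WT (428 to 611), 351-fold for Dspp+/- (313 to 396) and 616-fold for Dspp-/- (505 to 760). For troponin I it was 2170-fold for WT (1501 to 3266), 791-fold for Dspp+/- (658 to 961) and 830-fold for Dspp-/- (647 to 1083). Read the other way, slow T was 0.196%, 0.285% and 0.162% of fast T, and slow I was 0.0461%, 0.126% and 0.120% of fast I. No fast to slow ratio is given for troponin C, since Tnnc2 was at or under the limit of 3 fragments throughout. The sum of the fast members over the sum of the slow members was 650 for WT (553 to 763), 414 for Dspp+/- (375 to 458) and 618 for Dspp-/- (526 to 726). These ratios are taken within a library, so a change of scaling cancels from them.

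On the FPKM values as deposited, both subunits had a larger slow share in Dspp+/- than in WT. A pseudocount of 1 FPKM on both values kept this, while a pseudocount of 5 left T nearly equal and reversed I. The slow to fast ratio in Dspp+/- was 1.45 times that in WT for T (1.18 to 1.79) and 2.74 times for I (1.81 to 4.15). With the pseudocount of 1, fast over slow was 377 in WT and 298 in Dspp+/- for T, and 603 and 452 for I. With the pseudocount of 5 it was 185.5 and 185.3 for T, and 156 and 167 for I, the reverse order. A pseudocount of 5 exceeds the level of Tnni1 in every library and that of Tnnt1 in WT and Dspp-/-, so it outweighs those slow values. In Dspp-/- the subunits parted on the deposited values. For T the ratio was 0.827 times that in WT, with an interval of 0.635 to 1.08 that includes 1, and for I it was 2.61 times (1.67 to 4.09). With the pseudocount of 1, fast over slow in Dspp-/- was 409 for T, above WT, and 363 for I, below WT, so the subunits still parted. With the pseudocount of 5, fast over slow in Dspp-/- was 175 for T and 112 for I, both below WT, so the subunits did not part. Between the mutant libraries, the T ratio of Dspp-/- was 0.570 times that of Dspp+/- (0.453 to 0.718), and the I ratio 0.954 times (0.699 to 1.30).

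**Figure D4:**
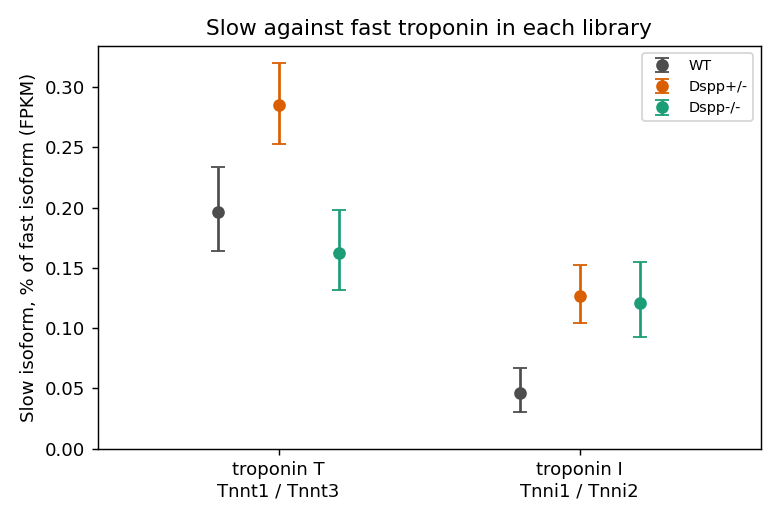
Slow isoform as a percent of the fast isoform of the same subunit, from FPKM, in each of the 3 libraries, with 95% Clopper-Pearson intervals for counting error. Slow T was 0.162% to 0.285% and slow I 0.0461% to 0.126% of the fast isoform, and WT was lowest for I but between the mutant libraries for T.

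The partners within a fibre type were also compared. Fast T over fast I was 1.74 for WT (1.71 to 1.77), 1.85 for Dspp+/- (1.83 to 1.88) and 1.90 for Dspp-/- (1.87 to 1.93). Slow T over slow I was 7.41 for WT (4.89 to 11.6), 4.18 for Dspp+/- (3.35 to 5.24) and 2.56 for Dspp-/- (1.84 to 3.57). Together Tnnt3 and Tnni2 took 0.354% of all fragments for WT, 0.466% for Dspp+/- and 0.289% for Dspp-/-.

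For comparison with all genes, differences were expressed as log2 ratios of FPKM + 1, which understate the change of low genes such as Tnni1. A gene was counted when it averaged 1 FPKM or more across the libraries and differed at least 2-fold on that scale. Of the 6 members, 3 (Tnnt3, Tnni2 and Tnnt1) reached that mean. In Dspp+/- against WT, 0 members were at least 2-fold higher, where 4.88% of the 13026 genes compared were, and 0 were at least 2-fold lower, where 2.86% were. For Dspp-/- against WT, 0 were higher and 0 lower, beside 4.05% and 1.37% of all genes. Between the mutant libraries, 0 members were higher in Dspp-/-, beside 0.852% of all genes, and 1, Tnnt1, was lower, beside 0.798%. No p-value or count at p belongs to these numbers, as no replicated test was run. The comparisons share libraries and are not independent of one another.

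In Dspp+/- against WT, the log2 ratio was 0.43 for Tnnt3, 0.34 for Tnni2, 0.77 for Tnnt1 and 0.75 for Tnni1, where the median of all 13026 genes was 0.058. The values were, for Dspp-/- against WT, -0.25, -0.38, -0.37 and 0.36 in the same order, beside a median of 0.0070. Set against Dspp+/-, Dspp-/- gave -0.68, -0.71, -1.14 and -0.39, beside -0.037. The ratios of these 4 troponins kept their sign under the 4 other scalings tried, while the medians of all genes, all near 0, did not. Scaling that left out hemoglobin, immunoglobulin and muscle genes lowered the median of all genes in Dspp+/- against WT from 0.058 to -0.097, and in Dspp-/- against WT from 0.0070 to -0.13. Under it 45.1% of the 2-fold genes in Dspp+/- were higher in place of 63.0%, and 56.8% in Dspp-/- in place of 74.6%.

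The rest of the thin filament gave 14 genes, all of which averaged 1 FPKM or more. In Dspp+/- against WT all 14 were above 0 with a median log2 ratio of 0.61, and 1 of them, Actc1, was at least 2-fold higher. Actc1, the cardiac actin that skeletal muscle also makes during development, stood at 10.9 FPKM for WT, 32.7 for Dspp+/- and 35.2 for Dspp-/-. Acta1, the main skeletal actin and the highest of the list, had 5609, 8162 and 7150 FPKM. Tpm2, a tropomyosin to which troponin T binds, had 662, 1074 and 772 FPKM. The median for Dspp-/- against WT was 0.28, with 12 genes above 0 and 2 below, and Actc1 was again the 1 gene at least 2-fold higher. Tnnt3 and Tnni2 had lower ratios than all 14 thin filament genes in that comparison, and so did Tnnt1. In Dspp+/- against WT, by contrast, 4 thin filament genes had a lower ratio than Tnnt3 and 2 a lower ratio than Tnni2. Among the 12 skeletal muscle markers, which had medians of 0.42 in Dspp+/- and 0.093 in Dspp-/- against WT, 0 had a lower ratio than Tnni2 in Dspp-/-, and 2 had a lower ratio than Tnnt3. Scaling that left out hemoglobin, immunoglobulin and muscle genes turned the second of these medians to -0.077.

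Genes of fast fibres went both ways in Dspp+/-. Of 10 fast fibre genes other than the troponins, 1 was at least 2-fold higher and 3 at least 2-fold lower in Dspp+/- than in WT, and the median log2 ratio was -0.0091, which scaling without mitochondrially encoded genes turned to 0.019. By sign, 5 of the 10 were above 0 and 5 below. Atp2a1, the fast fibre gene highest in WT, had 1146 FPKM for WT, 1767 for Dspp+/- and 1297 for Dspp-/-. Its log2 ratio in Dspp+/- against WT was 0.62, above those of Tnnt3 and Tnni2. Myh2, the IIa myosin heavy chain, stood at 342 FPKM for WT, 706 for Dspp+/- and 359 for Dspp-/-. Myh4, the heavy chain of the fastest IIb fibres, had 124, 18.2 and 111 FPKM. Actn3, an actinin of fast fibres, had 122, 31.0 and 89.5 FPKM, and Mybpc2, the fast myosin-binding protein C, had 129, 56.7 and 95.04 FPKM. Pvalb, the calcium buffer parvalbumin of fast fibres, had 567, 294 and 453 FPKM. The fast troponins were higher in Dspp+/- than in WT while Myh4, Actn3 and Mybpc2 were lower by at least 2-fold, and 8 of the 10 fast fibre genes had a lower ratio than Tnnt3 and than Tnni2. In Dspp-/- against WT 0 fast fibre genes passed 2-fold, and the median was -0.041, which scaling without mitochondrially encoded genes turned to 0.038.

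Slow fibre genes were 12, of which 10 reached a mean of 1 FPKM. In Dspp+/- against WT all 10 were above 0 with a median log2 ratio of 0.53, beside 0.77 for Tnnt1 and 0.75 for Tnni1. Myl2, the slow and cardiac regulatory light chain, was the 1 gene at least 2-fold higher, with 4.81 FPKM for WT, 17.7 for Dspp+/- and 4.01 for Dspp-/-. Myh7, the slow myosin heavy chain, was lower than Tnnt1 and Tnni1 in every library, with 0.138, 1.04 and 0.297 FPKM. The most abundant slow fibre gene was Mybpc1, the slow myosin-binding protein C, with 190, 322 and 261 FPKM. In Dspp-/- against WT the median of the list was -0.015, with 5 genes above and 5 below 0, and scaling without mitochondrially encoded genes turned it to 0.063. In Dspp-/- against Dspp+/- all 10 were below 0, with a median of -0.54, and Myl2 was at least 2-fold lower. Tpm3, which makes slow tropomyosin among other isoforms, is in this list and in the thin filament list.

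**Figure D5:**
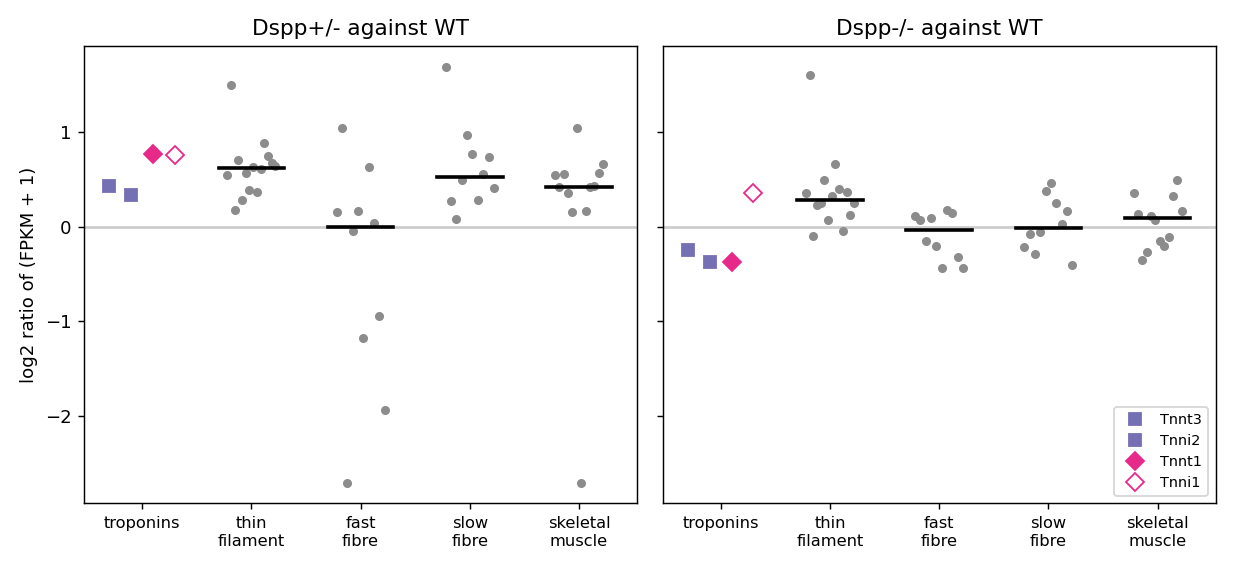
Log2 ratio of FPKM + 1 to WT for Tnnt3 and Tnni2 (squares), Tnnt1 and Tnni1 (diamonds, Tnni1 open because its mean was under 1 FPKM) and, in grey, each gene of 4 muscle lists with its median as a bar. Left, Dspp+/-, where all 4 troponins lie above 0; right, Dspp-/-, where 3 lie below 0 and Tnni1 lies at 0.36, and these signs held under the 4 other scalings tried.

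Markers of muscle stem cells and regeneration gave 4 genes that averaged 1 FPKM or more, with medians of 0.29 in Dspp+/- and -0.23 in Dspp-/- against WT. Among them Myh3, the embryonic myosin heavy chain, had 1.42, 3.82 and 1.01 FPKM, while Cdh15, the M-cadherin of satellite cells, had 12.7, 7.76 and 7.04 FPKM. Myod1 had 6.93, 8.69 and 6.76 FPKM, and Myh8, the perinatal heavy chain, had 9.39, 11.7 and 8.10 FPKM. Transcription factors and cofactors of muscle gave 15 of 19 genes at that average, with medians of 0.27 and 0.21 and 0 genes past 2-fold in either comparison. The largest ratio among them in Dspp+/- was that of Myf6, a myogenic factor of mature fibres, with 19.2, 37.3 and 25.3 FPKM.

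Of the 6 members, 4 had a start-site entry in the RefSeq tables used (GRCm38.p6), which were Tnni1, Tnnt1, Tnnc1 and Tnnc2, while Tnnt3 and Tnni2 had none. Windows of 250 bases before the listed start of the slow genes Tnni1 and Tnnt1 are printed. Both genes were highest in Dspp+/-, as were Tnnt3 and Tnni2, which have no window. E-boxes (CANNTG, read alike on both strands), the sites of myogenic factors such as MyoD, are in capitals. The Tnni1 window is chr1:135799171-135799420 on the plus strand, holds 4 E-boxes and has 19 bases in an exon of the gene in GENCODE M21. A second Tnni1 start in the table, with the window chr1:135799261-135799510, holds 2 E-boxes and is not printed, since 95 of its bases are in an exon.
Tnni1: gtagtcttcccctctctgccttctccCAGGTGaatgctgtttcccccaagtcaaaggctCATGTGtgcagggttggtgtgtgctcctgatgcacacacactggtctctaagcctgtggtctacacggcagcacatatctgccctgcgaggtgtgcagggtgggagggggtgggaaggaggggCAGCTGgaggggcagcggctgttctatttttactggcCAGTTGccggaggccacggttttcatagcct
The Tnnt1 window is chr7:4515976-4516225 on the minus strand, holds 1 E-box and has 29 bases in an exon of the gene. Both listed starts thus lie inside the annotated genes, and neither printed window is wholly sequence before its gene.
Tnnt1: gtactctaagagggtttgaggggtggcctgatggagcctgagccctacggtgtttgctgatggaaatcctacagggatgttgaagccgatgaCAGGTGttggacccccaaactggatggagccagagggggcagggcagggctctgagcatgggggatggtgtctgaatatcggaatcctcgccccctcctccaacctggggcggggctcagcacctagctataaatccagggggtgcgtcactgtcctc
Tnnc1 and Tnnc2 had 2 E-boxes each in their windows. Of 32851 windows of the same length, 66.2% held at least 1 E-box. An M-CAT element (CATTCC on either strand), the site of TEAD factors, was found in the Tnnc1 window and in 12.6% of all windows. The MEF2 motif was in none of the 4 members' first windows and in 2.92% of all windows. Such matches describe letters only.

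By the pattern over both ratios to WT, the genes nearest to the mean of the 3 fast members, among 4033 genes averaging 10 FPKM or more, were Dbnl, Cct7, Mrpl4, Pdlim3 and Mrpl12, at Euclidean distances of 0.024 to 0.033. Those nearest to the mean of the 3 slow members were Pla2g12a, Akap1, Dennd4b, Tmem38a and Flnc, at 0.030 to 0.038. The likeness rests on 3 libraries, and 64 and 43 genes lay within 0.1. Since the C members had hardly any fragments, the ranking was repeated without them, a choice made after seeing the data. The nearest were then Agpat3, Dmpk, Rpl3l, Mief2 and Fkbp4 for the fast pair, and Acadvl, Asb10, Stip1, Ndufab1-ps and Nfil3 for the slow pair, so no gene was named both times. In Dspp-/- against WT the mean of the slow pair was -0.0058, from -0.37 for Tnnt1 and 0.36 for Tnni1. The genes named for the slow members thus lie near a mean that neither Tnnt1 nor Tnni1 follows in that comparison.

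Genes within 50 kb of a member were read off the table. Prr33, whose span overlaps Tnnt3 on the other strand with 0 shared exon bases, had 21.8, 28.1 and 21.5 FPKM in WT, Dspp+/- and Dspp-/-. Lsp1, a leukocyte gene within 50 kb of both Tnnt3 and Tnni2, had 16.9, 17.8 and 17.2 FPKM. Syt8, a synaptotagmin gene 1411 bases from Tnni2, had 3.31, 0.850 and 1.23 FPKM, lowest in Dspp+/-, where Tnni2 was highest. Tnnt1 lies 1922 bases from the cardiac Tnni3, and Tnni1 lies 25.4 kb from the cardiac Tnnt2, and both cardiac genes stayed at or under 14 fragments.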

How the data were processed

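RNA was sequenced from condyles of 3 genotypes, 1 library each, from poly(A)-selected RNA in pairs of 150 bases; the notes of the submitters name FastQC 0.11.5, HISAT2 2.1.0, StringTie 1.3.3b, DESeq 1.28.0 and, for these mouse samples, the human build hg38. The authors deposited 1 table whose unit is not named, read here as FPKM because FPKM times the summed exon length of GENCODE M21 genes came out as whole fragments in all 3 libraries for 98.9% of 26652 genes. A value was called whole within 0.1% or 0.02 of a fragment. Counts of 0 and large counts pass that limit in any case. Among genes with under 100 fragments, 98.5% were whole in each library, of 11275 genes for WT, 11326 for Dspp+/- and 10940 for Dspp-/-. Positions are those of the table, whose build is not given in the sources used here and is not GRCm38, where 589 genes match in both start and end. Whether counting used strand is not given either. The labels mention triplicates, and 1 column per genotype was read as 1 library.

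Fragments gave the 95% intervals (Clopper-Pearson for folds and fast to slow ratios of 1 pair, Woolf for ratios of ratios, a normal approximation for sums, Poisson for levels) and the limit of 3 fragments. Log2 ratios used a pseudocount of 1 and a mean of at least 1 FPKM. The study's Kruskal-Wallis test cannot be run on 1 library per genotype. The members and gene lists were chosen with earlier results of these data known. Genes named are the members, the cardiac isoforms, muscle list genes that were highest in WT or moved at least 2-fold or against their list, the 5 nearest by pattern, and neighbours within 50 kb; Tpm2, Pvalb, Myh7, Myh3, Myf6 and the neighbours with values were picked after their values were seen. Alternatives covered pseudocount, filter, threshold, scaling and the subunits summed. Recovery was tested on simulated data. Dspp was not analysed here. Tables were handled with pandas 2.3.3 and numpy 2.4.6 in Python 3.11.15, intervals with scipy 1.17.1, and plots with matplotlib 3.10.9.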

Additional observations from a re-analysis of the deposited data

How the results depend on the processing

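Of 72 values of Tnnt3, Tnni2, Tnnt1 and Tnni1 under other pseudocounts and scalings, 0 changed sign. A pseudocount added to both values cannot change the sign of a log2 ratio, so only the values under other scalings could have done so. Against 0 members at least 2-fold higher in Dspp+/- than in WT, a threshold of 1.5-fold gave 1 (Tnnt1). Against 1 member at least 2-fold lower in Dspp-/- than in Dspp+/-, a pseudocount of 5, a mean of at least 5 FPKM and a threshold of 4-fold each gave 0, and a threshold of 1.5-fold gave 3 (Tnnt3, Tnnt1 and Tnni2). The other counts of members did not move.

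The sum of fast over slow members was 650, 414 and 618 in WT, Dspp+/- and Dspp-/-. As a ratio of fragments, with no division by length, it was 446, 268 and 390. A pseudocount of 1 on both sums gave 506, 364 and 464, and a pseudocount of 5 gave 269, 246 and 233, which puts Dspp-/- lowest. Without the T pair it was 1246, 621 and 622, and without the I pair it was 463, 329 and 545, which puts Dspp-/- above WT. Leaving out the C pair kept each value within its counting interval. For single pairs, a pseudocount of 5 took fast over slow I from 2170 and 791 in WT and Dspp+/- to 156 and 167, and fast over slow T from 509 and 351 to 185.5 and 185.3. In Dspp-/- it took I from 830 to 112 and T from 616 to 175. A pseudocount of 1 gave, in WT, Dspp+/- and Dspp-/-, 603, 452 and 363 for I and 377, 298 and 409 for T.

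No paired analysis was possible because each genotype has 1 library. Low counts limit Tnnc1, Tnnc2, Tnnt2 and Tnni3, with at most 14 fragments each. Whether the overlap with Ube2c lowered the count of Tnnc2 was not tested. With 1 library per genotype, every comparison is limited to these libraries.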
